A study of Mus musculus with 10 samples.

Results

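The DnaJ genes of the mouse testis, 44 genes of 19661 measured, were described in mice without Crem. The protein CREM belongs to a family of transcription factors that respond to cAMP signalling. Its activator form switches on genes of developing spermatids, and the Crem gene also makes repressors. DnaJ proteins, also called Hsp40 or J proteins, carry a J domain with a histidine, proline and aspartate motif that stimulates the ATPase of Hsp70 and so loads client proteins onto it. Type A members resemble the bacterial DnaJ most closely, type B members keep a glycine-rich linker, and type C members share little but the J domain and use it at special sites such as the endoplasmic reticulum, the mitochondria or the ribosome. Spermatids remodel their proteins on a large scale while they elongate, and several J proteins are known mainly from these cells. Members were all genes whose symbol begins with Dnaja, Dnajb or Dnajc and which an array feature names alone. A feature is the set of probes summarised into 1 value, and where a gene had several, the feature with the highest average over the 10 arrays stood for it. The annotation named 45 such genes, and the features of Dnajc3, an inhibitor of stress kinases that also works in the endoplasmic reticulum, held no values. All 44 others were tested, with no filter on low levels.

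Whole testis RNA was hybridised to Affymetrix Gene 1.0 ST arrays, 1 mouse per array. The 5 Crem-/- (KO) mice carried an insertion of a neomycin resistance gene that disrupts the region coding for the DNA-binding domain, and their germ cells stop at the round spermatid stage. The 5 WT mice were of the same mixed strain, 129Pas x C57Bl/J, and all mice were untreated, 8 weeks old and killed when the lights came on, at 0 h. The insertion is not limited to a tissue. The labels place the arrays in 4 batches: KO replicates 1, 4 and 5 with WT replicate 5 in batch 4, KO replicate 3 with WT replicates 1 to 3 in batch 2, KO replicate 2 alone in batch 1 and WT replicate 4 alone in batch 3. Values are log2 levels, and changes are KO minus WT with the standard error (SE) of the limma fit. A gene was called lower or higher when its adjusted p in limma was under 0.05.

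The 10 arrays had medians of 7.11 to 7.15. In KO, Crem fell by 1.71 ± 0.07 on the log2 scale (SE, limma adjusted p = 3.0e-10). All 15 late spermatid markers were called lower, with a median change of −5.03. Their mean level was 7.61 to 9.47 in the KO arrays, against 12.66 to 12.91 in the WT arrays, and it was highest in KO replicates 2 and 3. Of 10 round spermatid markers 9 were called lower (median −1.26). Of 10 pachytene markers 1 was lower and 5 were higher. All 8 macrophage markers and 5 of 6 Leydig cell markers were called higher, with medians of 0.60 and 0.57, and so were 4 of 9 Sertoli cell markers (median 0.13). Of 8 spermatogonia markers 1 was lower and 2 were higher, of 7 epididymis markers 2 were lower and 1 was higher, and 1 of 5 peritubular myoid and 2 of 4 endothelial and blood markers were higher. In RNA of a whole organ, fewer cells of a type and less RNA per cell cannot be told apart, and the part of these cell types in any value given here was not tested.

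Of the 44 DnaJ genes, 14 were called lower in KO (31.8%), where 13.2% of all genes were, and 12 were called higher (27.3%), where 31.1% of all genes were. The other 18 were not called. The median change of the members was 0.08, beside 0.07 over all genes, and their mean was −0.32. Few members moved far: 4 were called lower with a log2 change of −1 or less, where 4.36% of all genes were, 3 of them with −3 or less, where 1.39% of all genes were, and 0 were called higher by 1 or more, where 1.37% of all genes were. Every KO array lay below every WT array for 12 members, with a background of 10.7%, and above every WT array for 11, with a background of 22%. The exceptions among the called members were Dnajc22, Dnajc18 and Dnajb11, whose groups overlapped.

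**Figure D1:**
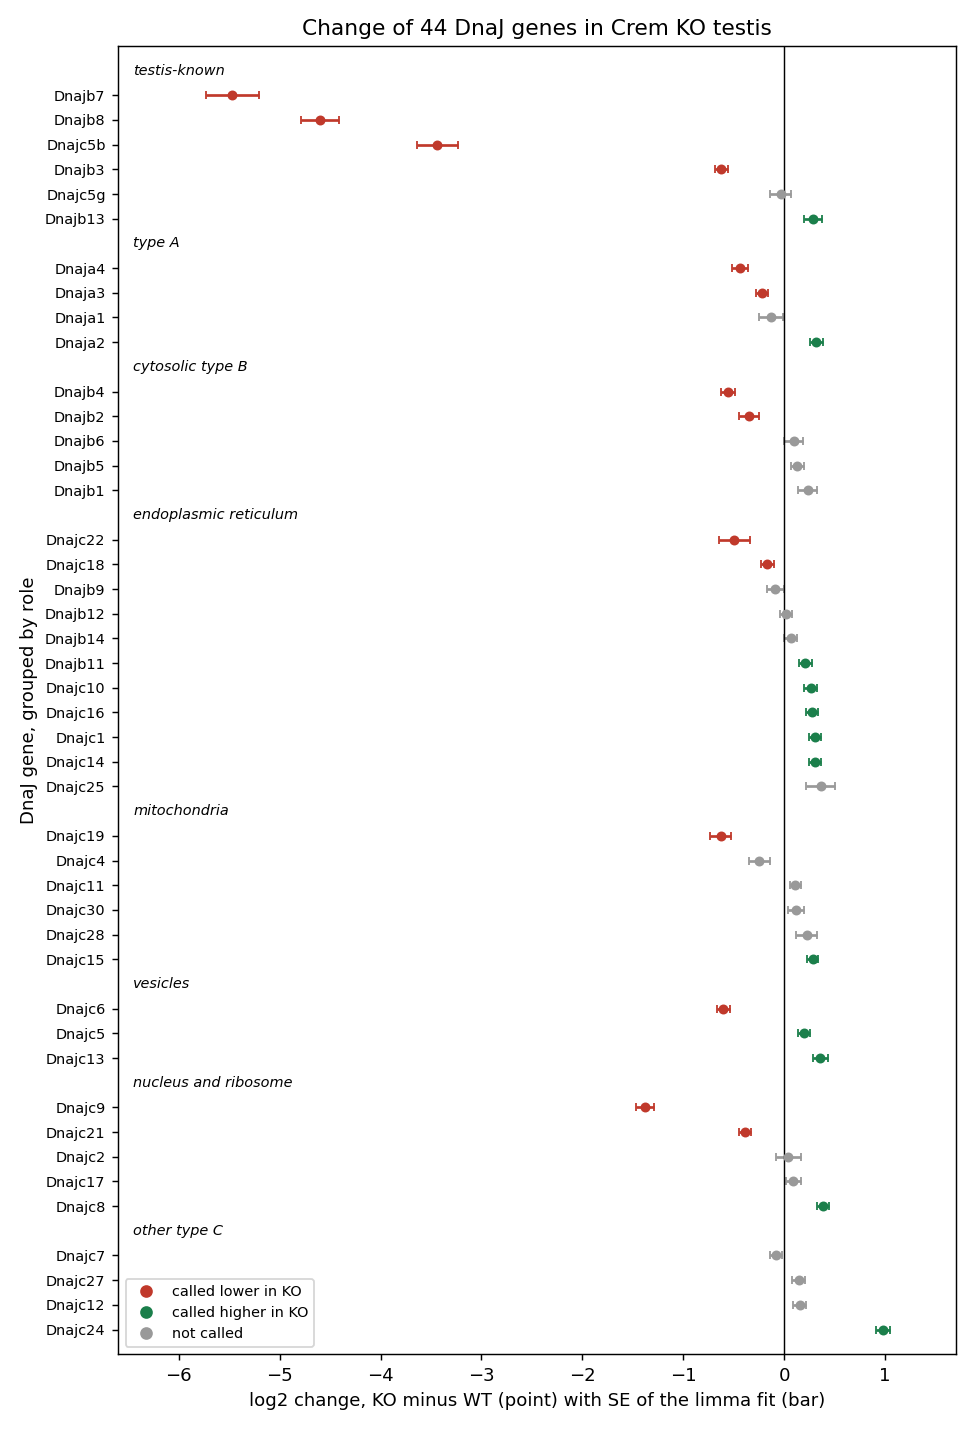
Log2 change, KO minus WT, of the 44 DnaJ genes grouped by role, with the SE of the limma fit as a bar and colours for genes called lower, called higher or not called. Dnajb7, Dnajb8 and Dnajc5b stand apart at −5.47, −4.60 and −3.44, Dnajc9 follows at −1.38, and all other members lie between −0.63 and 0.98.

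The 3 deepest falls all belonged to the 6 members known mainly from the testis, a group put together with earlier results of these data known. A wider list of 8 members with a known place in the testis also holds Dnaja1 and Dnajb6, which were not called. Of these 8, 4 were called lower, where 13.2% of all genes were, and 1 higher, where 31.1% were (median change −0.37). Dnajb7, a type B protein of testis about which little is known, had levels of 5.25, 5.67, 5.78, 4.33 and 4.28 in the KO arrays, against 10.51, 10.62, 10.51, 10.66 and 10.35 in the WT arrays. The groups lay far apart, and the KO arrays differed among themselves much more than the WT arrays did. Dnajb7 (feature 10430739) was 44.3-fold lower, a change of −5.47 ± 0.26 (SE, limma adjusted p = 8.67e-10). Its KO mean stood at percentile 12.7 of the feature values of the KO arrays. The deposited values carry no detection call, so how much of this level is background is not known, and the fold is a ratio of the values as given, which can understate the fall. Dnajb7 lies inside Xpnpep3, an aminopeptidase gene that was called higher by 0.66 ± 0.06 (SE, limma adjusted p = 2.28e-06), so the host gene and the gene within it went opposite ways.

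Dnajb8, a testis-enriched type B protein that keeps polyglutamine proteins from aggregating in cultured cells, had levels of 7.45, 7.90, 7.99, 6.99 and 7.02 in KO, against 12.28, 11.96, 11.74, 12.25 and 12.10 in WT. The lowest WT array was far above the highest KO array. The change was −4.60 ± 0.19 (SE, feature 10539880, limma adjusted p = 1.84e-10), or 24.2-fold lower. Dnajc5b, a paralogue of the cysteine string protein of secretory vesicles, stood at 9.11, 9.85, 9.49, 9.07 and 8.38 in KO, against 12.79, 12.67, 12.67, 12.46 and 12.47 in WT. Here too no arrays overlapped, and KO replicate 2 kept the most signal. The change was −3.44 ± 0.20 (SE, feature 10490966, limma adjusted p = 1.02e-08), or 10.8-fold lower.

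The other 3 testis members did not share this depth. Dnajb3, a J protein found in spermatids and sperm of the mouse, had levels of 11.73, 11.80, 11.86, 12.00 and 11.84 in KO, against 12.45, 12.47, 12.53, 12.34 and 12.55 in WT. The groups were separate but close, and the change was −0.62 ± 0.07 (SE, limma adjusted p = 4.36e-06), or 1.54-fold lower. Dnajb13, a component of the radial spokes of the sperm tail, stood at 11.50, 11.51, 11.44, 11.73 and 11.55 in KO, against 11.29, 11.35, 10.96, 11.42 and 11.28 in WT. All KO arrays were above all WT arrays by a small margin, a change of 0.29 ± 0.09 (SE, limma adjusted p = 0.0173). The call of Dnajb13 was lost with batch as a fixed block, at 0.28 (limma adjusted p = 0.0784), and within batches 2 and 4.

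Dnajc5g is the other testis paralogue of the cysteine string protein. Its levels were 11.75, 11.78, 11.86, 11.42 and 11.87 in KO, against 11.50, 11.99, 11.76, 11.90 and 11.69 in WT, and the groups overlapped throughout. The change was −0.03 ± 0.10 (SE, limma adjusted p = 0.837), with a 95% interval of −0.26 to 0.19. The paralogues Dnajc5b and Dnajc5g thus lay on either side of the call, and the difference between their changes was not tested.

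**Figure D2:**
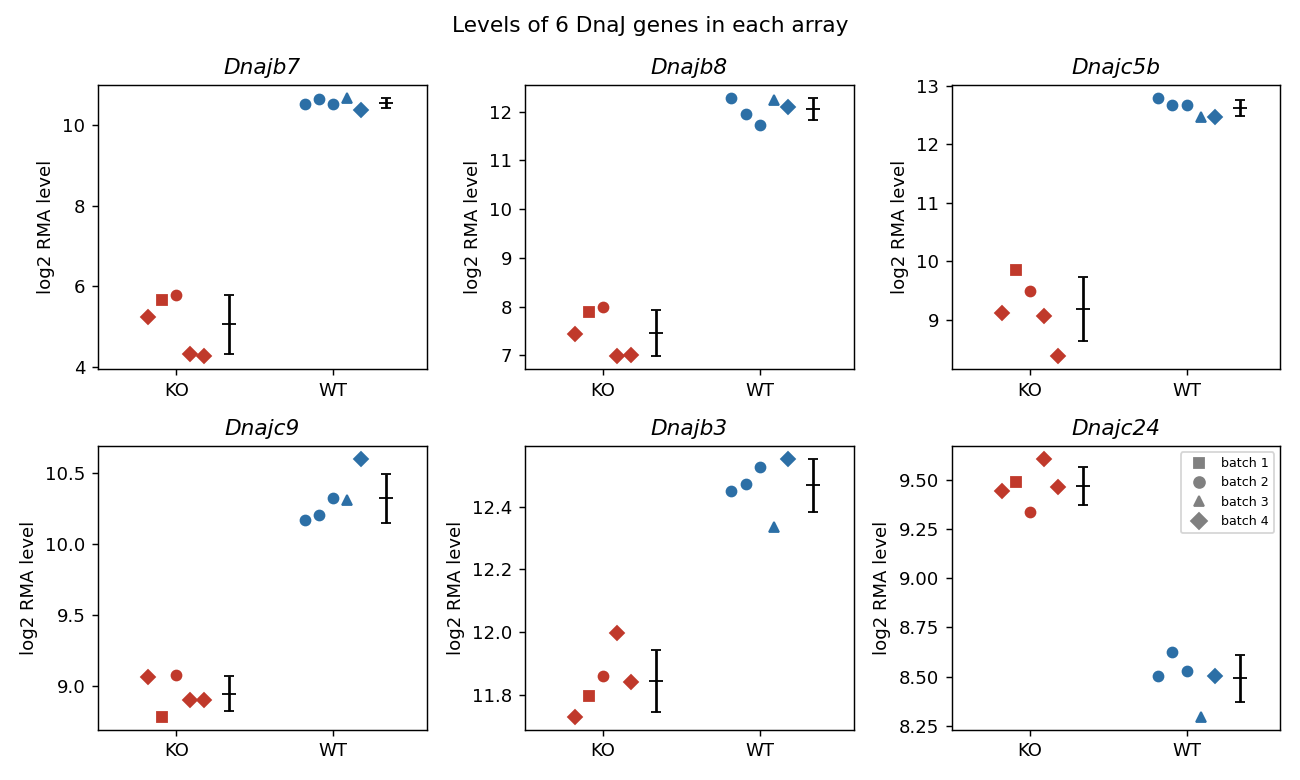
Log2 level of 6 DnaJ genes in each of the 5 KO and 5 WT arrays, with symbols for the batch and the mean ± SD beside each group. The genotypes do not overlap in any panel: the KO arrays are lower for Dnajb7, Dnajb8, Dnajc5b, Dnajc9 and Dnajb3 and higher for Dnajc24.

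The KO arrays differed in the signal left of these genes. The values of Dnajb7 in KO replicates 1 to 5 were 2.56%, 3.44%, 3.70%, 1.35% and 1.31% of the WT mean, and how much of these values is background is not known. Those of Dnajb8 were 4.03%, 5.53%, 5.88%, 2.93% and 3.00%. In both genes replicates 2 and 3 had the highest values. For Dnajc5b the shares were 8.75%, 14.6%, 11.5%, 8.51% and 5.29%, again with replicates 2 and 3 on top. The median over the late spermatid markers was 3.23%, 7.99%, 7.61%, 1.89% and 1.63% in the same arrays, and for 14 of these 15 markers replicates 2 and 3 were the highest KO arrays. This order held for 11.2% of all genes, for 375 of the 857 genes that fell by 1 or more (43.8%) and for 229 of the 274 that fell by 3 or more (83.6%). Among the 14 members called lower it held for 3, which were Dnajb7, Dnajb8 and Dnajc5b. Dnajc9 kept 41.5%, 34.1%, 41.8%, 37.0% and 37.1%, with replicate 2 the lowest. Dnajb3 kept 59.9%, 62.6%, 65.5%, 72.0% and 64.7%, with replicate 4 the highest.

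**Figure D3:**
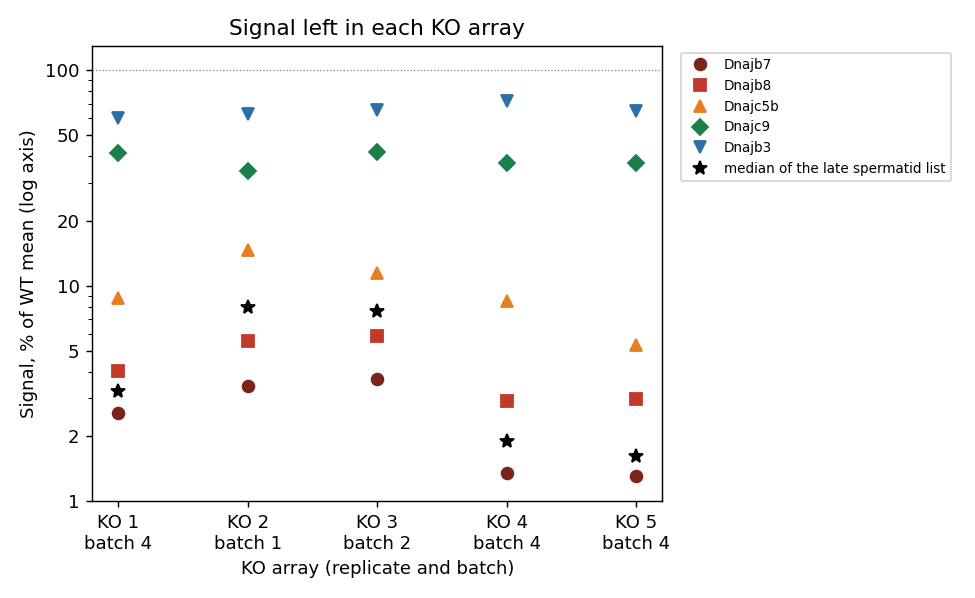
Signal left in each of the 5 KO arrays as a percentage of the WT mean (log axis), for 5 DnaJ genes and for the median of the 15 late spermatid markers. KO replicates 2 and 3 had the highest values of Dnajb7, Dnajb8, Dnajc5b and the marker median, while Dnajc9 and Dnajb3 were ordered otherwise.

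The deep falls were also present within each batch that held both genotypes. In batch 2 alone the changes of Dnajb7, Dnajb8 and Dnajc5b were −4.77, −4.00 and −3.22. In batch 4 alone they were −5.73, −4.95 and −3.62, and without KO replicates 2 and 3 they were −5.91, −4.91 and −3.76. Batch 2 rests on a single KO array and batch 4 on a single WT array. Over the whole family 11 members were called lower in batch 2 (background 7.89%) and 10 in batch 4 (8.06%), and 13 without KO replicates 2 and 3 (13%). The counts called higher were smaller within batches, 3 in batch 2 (background 11.2%) and 2 in batch 4 (9.67%), against 14 without KO replicates 2 and 3 (30.6%). With batch as a fixed block 15 members were called lower (background 12%) and 8 higher (26.3%): Dnajc4 and Dnajc25 gained a call, and Dnaja2, Dnajb11, Dnajb13, Dnajc5 and Dnajc10 lost theirs. All 26 called members kept their direction in each of these fits.

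CREM binds the cAMP response element (CRE), whose full form is TGACGTCA and whose partial form is TGACG or, read on the other strand, CGTCA. The window of 250 bases before to 50 after the gene start was searched for both forms on both strands, and a full CRE contains an overlapping pair of partial ones. RefSeq (GRCm38.p6) gave such windows for 36 of the 44 members but not for Dnajc5b. The 250 bases before the start are printed for the 2 members that fell most among those with a window, for Dnajb3, which fell mildly, and for Dnajc27, the member with a full CRE. Capitals mark each CRE, full or partial. The printed stretches lie at chr15:81408274-81408523 on the minus strand (Dnajb7), chr6:88222018-88222267 on the plus strand (Dnajb8), chr1:88205749-88205998 on the minus strand (Dnajb3) and chr12:4082324-4082573 on the plus strand (Dnajc27).
Dnajb7: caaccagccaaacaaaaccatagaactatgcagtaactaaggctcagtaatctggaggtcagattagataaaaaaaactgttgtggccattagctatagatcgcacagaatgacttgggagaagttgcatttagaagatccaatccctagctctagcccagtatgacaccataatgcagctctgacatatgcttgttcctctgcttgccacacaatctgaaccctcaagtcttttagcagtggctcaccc
Dnajb8: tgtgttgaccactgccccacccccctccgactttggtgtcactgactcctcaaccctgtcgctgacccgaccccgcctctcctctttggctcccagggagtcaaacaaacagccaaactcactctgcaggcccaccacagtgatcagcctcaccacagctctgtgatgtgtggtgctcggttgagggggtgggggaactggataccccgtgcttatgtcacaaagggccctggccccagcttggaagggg
Dnajb3: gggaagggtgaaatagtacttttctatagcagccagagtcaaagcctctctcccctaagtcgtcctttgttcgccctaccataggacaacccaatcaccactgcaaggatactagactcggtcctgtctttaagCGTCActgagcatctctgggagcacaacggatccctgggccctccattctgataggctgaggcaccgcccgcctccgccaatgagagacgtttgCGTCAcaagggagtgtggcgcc
Dnajc27: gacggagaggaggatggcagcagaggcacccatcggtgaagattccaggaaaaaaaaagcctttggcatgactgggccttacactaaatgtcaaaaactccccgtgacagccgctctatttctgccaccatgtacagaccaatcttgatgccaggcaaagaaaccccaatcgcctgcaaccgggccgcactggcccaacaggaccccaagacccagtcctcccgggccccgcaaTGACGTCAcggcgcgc

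The windows of Dnajb7 and Dnajb8 held neither form. That of Dnajb3 held CGTCA starting at −116 and at −22 from the gene start. The full CRE of Dnajc27, a Rab-like GTPase with a J domain, started at −16, and its change of 0.15 ± 0.06 was not called (SE, limma adjusted p = 0.0842). Over all 32851 windows of the same length 1.79% held a full CRE and 20.8% a partial one. Counted by gene, 21 of the 36 members had a partial CRE (58.3%), against 27.8% of the 15401 genes with array values and a window. It was found in 8 of 11 members called lower, in 4 of 11 called higher and in 9 of 14 not called. A match of letters is a description of the sequence and does not show a site that is bound.

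Members of the nucleus and the ribosome held the fourth fall beyond 1. Dnajc9, a histone co-chaperone that handles H3 and H4, had levels of 9.06, 8.78, 9.07, 8.90 and 8.90 in KO, against 10.17, 10.20, 10.33, 10.31 and 10.61 in WT. The groups were clearly separate and their spreads were alike. The change was −1.38 ± 0.09 (SE, feature 10417829, limma adjusted p = 2.12e-08), or 2.60-fold lower, and it was −1.16 in batch 2 and −1.65 in batch 4. Dnajc21, which helps to mature the large ribosomal subunit, was called lower by a smaller step, −0.39 ± 0.06 (SE, limma adjusted p = 0.00022).

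The splicing-associated Dnajc8 went the other way. Its levels were 10.16, 10.13, 10.09, 10.16 and 9.98 in KO, against 9.77, 9.69, 9.70, 9.80 and 9.64 in WT, so each KO array was above each WT array. The change was 0.38 ± 0.06 (SE, limma adjusted p = 0.000141). Dnajc2, a ribosome-associated J protein, changed by 0.04 ± 0.12 and Dnajc17, another splicing-associated member, by 0.09 ± 0.07 (SE), and neither was called.

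Dnajc24 was the largest rise of the family. It encodes an enzyme cofactor of the synthesis of diphthamide, a modified histidine of the elongation factor eEF2. Its levels were 9.44, 9.49, 9.34, 9.61 and 9.47 in KO, against 8.50, 8.63, 8.53, 8.30 and 8.50 in WT. No arrays overlapped and the spread was small in both genotypes. KO arrays were 1.97-fold higher, by 0.98 ± 0.07 (SE, limma adjusted p = 1.05e-07), with changes of 0.78 in batch 2 and 1.01 in batch 4. Of the other type C members without a fixed compartment, Dnajc7, which links Hsp70 to Hsp90, changed by −0.08 ± 0.06, and Dnajc12, a partner of the aromatic amino acid hydroxylases, by 0.15 ± 0.07 (SE), and neither they nor Dnajc27 were called.

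The 4 type A members split. Dnaja2, a cytosolic general partner of Hsp70, stood at 11.13, 11.23, 11.04, 11.26 and 11.14 in KO, against 10.74, 10.74, 10.96, 10.82 and 10.92 in WT. All KO arrays were higher, by 0.32 ± 0.07 (SE, limma adjusted p = 0.00167). With batch as a fixed block Dnaja2 was at 0.24 and no longer called (limma adjusted p = 0.0508), nor was it in batch 2 or batch 4. Its cytosolic relative Dnaja4 was lower by a similar size, −0.44 ± 0.08 (SE, limma adjusted p = 0.000465), and the mitochondrial Dnaja3 by −0.22 ± 0.06 (SE, limma adjusted p = 0.0119). In batches 2 and 4 alone Dnaja3 was not called, and its change was −0.25 and −0.18. Without KO replicates 2 and 3 it was −0.16 and no longer called (limma adjusted p = 0.0618).

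Dnaja1, whose loss in mice impairs spermatogenesis, had levels of 9.39, 8.89, 9.00, 8.76 and 9.09 in KO, against 9.36, 8.87, 9.02, 9.32 and 9.18 in WT. The genotypes covered the same range. The change was −0.13 ± 0.12 (SE, limma adjusted p = 0.445), with a 95% interval of −0.38 to 0.13.

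Among the 5 cytosolic type B members 2 were called lower, where 13.2% of all genes were, and 0 higher, where 31.1% were. Dnajb4, an Hsp40 of many tissues, changed by −0.55 ± 0.07 (SE, limma adjusted p = 3.28e-05), and its arrays ran between 11.13 and 11.40 in KO, against 11.71 to 11.97 in WT. Fubp1, which overlaps Dnajb4, changed by 0.09 and was not called. Dnajb2, known from neurons as a sorter of ubiquitinated clients, changed by −0.35 ± 0.10 (SE, limma adjusted p = 0.0126). Dnajb1, the classical heat-inducible Hsp40, changed by 0.23 ± 0.09 and missed the threshold (SE, limma adjusted p = 0.0548), and Dnajb5 changed by 0.13 ± 0.07 (SE). Dnajb6, a suppressor of polyglutamine aggregation like Dnajb8, stood at 10.53, 10.41, 10.55, 10.73 and 10.37 in KO, against 10.46, 10.46, 10.67, 10.40 and 10.13 in WT. These ranges overlapped, and the change was 0.09 ± 0.10 (SE, limma adjusted p = 0.48), with a 95% interval of −0.11 to 0.30.

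The endoplasmic reticulum group was the largest, with 11 members, of which 5 were called higher and 2 lower (median change 0.21), where 31.1% of all genes were higher and 13.2% lower. The 5 that rose were Dnajc14, a membrane protein of the export route, at 0.31, Dnajc1, which binds ribosomes at the membrane, at 0.30, Dnajc16 at 0.28, Dnajc10, a disulfide reductase of misfolded clients, at 0.26, and Dnajb11, a partner of the luminal Hsp70 BiP, at 0.21. Their SE was 0.06 to 0.07, and the limma adjusted p ran between 0.000649 and 0.0227. With batch as a fixed block Dnajc10, at 0.20, and Dnajb11, at 0.18, were no longer called (limma adjusted p of 0.0597 and 0.0777), and the other 3 were. Dnajc22 and Dnajc18, both membrane proteins, fell by 0.49 and 0.17, with limma adjusted p of 0.0212 and 0.0488 and overlapping arrays. Dnajc22 had low levels, at percentile 33.6 of the KO array values and 44.1 of the WT array values. The change of Dnajc22 was larger within batches, −0.94 in batch 2 and −0.77 in batch 4, and it was −0.85 with batch as a fixed block (limma adjusted p = 0.000581). The single KO array of batch 2 had the lowest KO level of Dnajc22, 5.88. The single WT array of batch 4 had the highest WT level, 7.14. The block fit compares the genotypes only within batches 2 and 4, so it rests on these arrays too. Dnajc18 lost its call when any of 8 single arrays was left out, Dnajb11 for any of 4, and Dnajc22 without WT replicate 1 or 5. Dnajc1 overlaps Mllt10, which changed by 0.24, and Dnajc14 overlaps Ormdl2 and Tmem198b, which changed by 0.22 and 0.17, and signal shared between overlapping genes was not tested. Dnajb9, a stress-inducible partner of BiP, changed by −0.08 ± 0.08 and the membrane proteins Dnajb12 and Dnajb14, which act in degradation of misfolded proteins, by 0.02 and 0.06, none of them called. Dnajc25 changed by 0.37 ± 0.14, the widest error of this group but for Dnajc22 (SE, limma adjusted p = 0.0575). With batch as a fixed block Dnajc25 was called higher, at 0.75 (limma adjusted p = 5.62e-05), and its change was 0.64 in batch 2 and 0.85 in batch 4. The single KO array of batch 2 had the highest KO level of Dnajc25, 8.43. The single WT array of batch 4 had the lowest WT level, 7.24, apart from the other WT arrays. The block fit rests on these arrays too.

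Of 6 mitochondrial members besides Dnaja3, 1 was called lower, where 13.2% of all genes were, and 1 higher, where 31.1% were. These were the paralogues Dnajc19 and Dnajc15, which both belong to the kind of J protein that drives the import motor of the inner membrane. Dnajc19 had levels of 6.77, 6.78, 6.99, 6.64 and 7.19 in KO, against 7.49, 7.55, 7.72, 7.32 and 7.40 in WT, a change of −0.63 ± 0.10 (SE, limma adjusted p = 0.000308). Its groups were separate, by a small gap. Fxr1, which overlaps Dnajc19, changed by −0.01 (limma adjusted p = 0.923). Dnajc15 was higher by 0.28 ± 0.05 (SE, limma adjusted p = 0.000957), and the difference between both changes was not tested. Dnajc4, Dnajc11, Dnajc28 and Dnajc30 changed by −0.25, 0.11, 0.22 and 0.12 and were not called. Dnajc4 was called lower with batch as a fixed block, at −0.31 (limma adjusted p = 0.019), and its change was −0.17 in batch 2 and −0.44 in batch 4. The single WT array of batch 4 had the highest WT level of Dnajc4, 10.35.

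Of 5 members that act on vesicles, Dnajc5b and Dnajc5g are described with the testis members, and the other 3, Dnajc6, Dnajc5 and Dnajc13, were called, where 44.3% of all genes were called in either direction. Dnajc6, the auxilin that strips clathrin from vesicles, had levels of 6.07, 6.28, 6.01, 6.15 and 6.09 in KO, against 6.71, 6.83, 6.69, 6.62 and 6.75 in WT. The groups did not overlap, and the change was −0.60 ± 0.06 (SE, limma adjusted p = 5.15e-06). The level of Dnajc6 was low in both genotypes, at percentile 28.4 of the KO array values and 40.7 of the WT array values. How much of it is background is not known. Dnajc5, the cysteine string protein itself, was higher by 0.20 ± 0.06 (SE, limma adjusted p = 0.0134). With batch as a fixed block Dnajc5 was at 0.16 and no longer called (limma adjusted p = 0.0948), nor was it in batch 2 or batch 4. Of the 3 cysteine string paralogues, Dnajc5b was thus the only one called in each of these fits.

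Dnajc13, a large endosomal J protein, stood at 10.12, 9.90, 10.04, 9.80 and 10.12 in KO, against 9.68, 9.60, 9.74, 9.58 and 9.58 in WT. Every KO array was higher, by 0.36 ± 0.07 (SE, limma adjusted p = 0.00135). It is the only member with more than 1 feature that holds values, and all 15 of its features were called higher, with changes of 0.25 to 0.60 and a median of 0.35. For 12 of them each KO array lay above each WT array, and the highest limma adjusted p was 0.0171. The features come from the same 10 RNA samples and are not replicates.

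**Figure D4:**
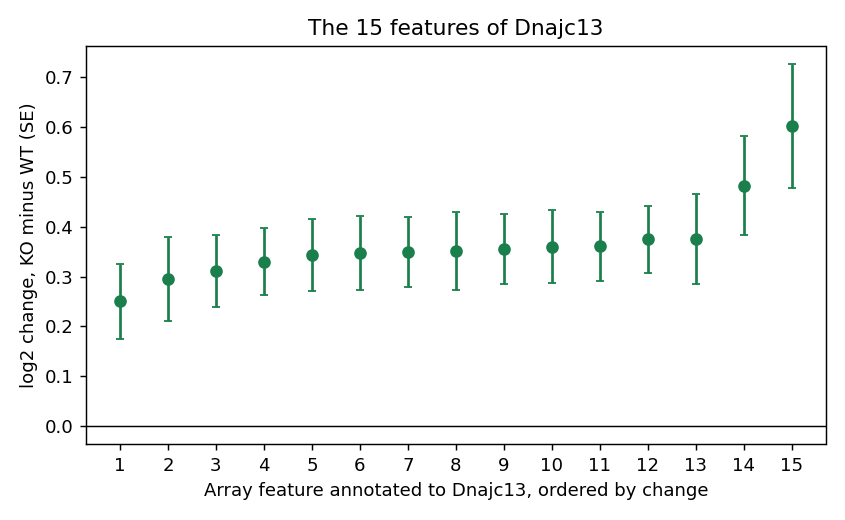
Log2 change, KO minus WT, of the 15 array features annotated to Dnajc13, ordered by size, with the SE of the limma fit as a bar. All lie above 0, between 0.25 and 0.60.

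J proteins act through Hsp70, and exchange factors then release ADP from it. Of 24 measured genes of Hsp70, the related Hsp110 class and the exchange factors, 5 were called lower (20.8%, against 13.2% of all genes) and 8 higher (33.3%, against 31.1%), with a median change of 0.03, beside 0.07 over all genes. With batch as a fixed block 5 of them were called higher (background 26.3%), and fewer were in batch 2 or batch 4 alone. Hspa1l, the testis form of Hsp70 that is made in spermatids, had levels of 7.24, 7.95, 8.19, 6.79 and 6.62 in KO, against 12.41, 12.51, 12.46, 12.63 and 12.49 in WT. The gap between the groups was wide, and KO replicates 2 and 3 were again on top. The change was −5.14 ± 0.25 (SE, limma adjusted p = 1.1e-09), or 35.3-fold lower. Hspa2, the Hsp70 of meiotic germ cells, was named after its value was seen: it was higher by 0.29 ± 0.06 (SE, limma). In batches 2 and 4 alone Hspa2 was at 0.27 and 0.37 and was not called.

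Hspa12b, a distant Hsp70 relative known from endothelium, changed by −1.01 ± 0.06 (SE, limma) and was called lower. Bag1, an exchange factor that also ties Hsp70 to the proteasome, stood at 10.23, 10.16, 10.18, 10.12 and 10.11 in KO, against 11.20, 11.11, 11.01, 11.29 and 11.23 in WT. No arrays overlapped, and its change was −1.01 ± 0.06 (SE, limma). In batches 2 and 4 it was −0.93 and −1.08. Bag5, of the same family, changed by −0.53 ± 0.07 (SE, limma) and was called lower too. None of the 4 measured Hsp110 genes was called. The germ cell form Hspa4l changed by 0.08 (limma adjusted p = 0.25) and Hyou1, which works in the endoplasmic reticulum, by 0.06 (limma adjusted p = 0.60). Of 3 measured genes of J-domain proteins with other names 1 was called. Sec63, the J protein of the protein channel of the endoplasmic reticulum, was higher by 0.29 ± 0.05 (SE, limma). In batches 2 and 4 alone Sec63 was at 0.31 and 0.17 and was not called. Hscb, the J protein of iron-sulfur cluster assembly, changed by 0.14 and was not called (limma adjusted p = 0.29).

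**Figure D5:**
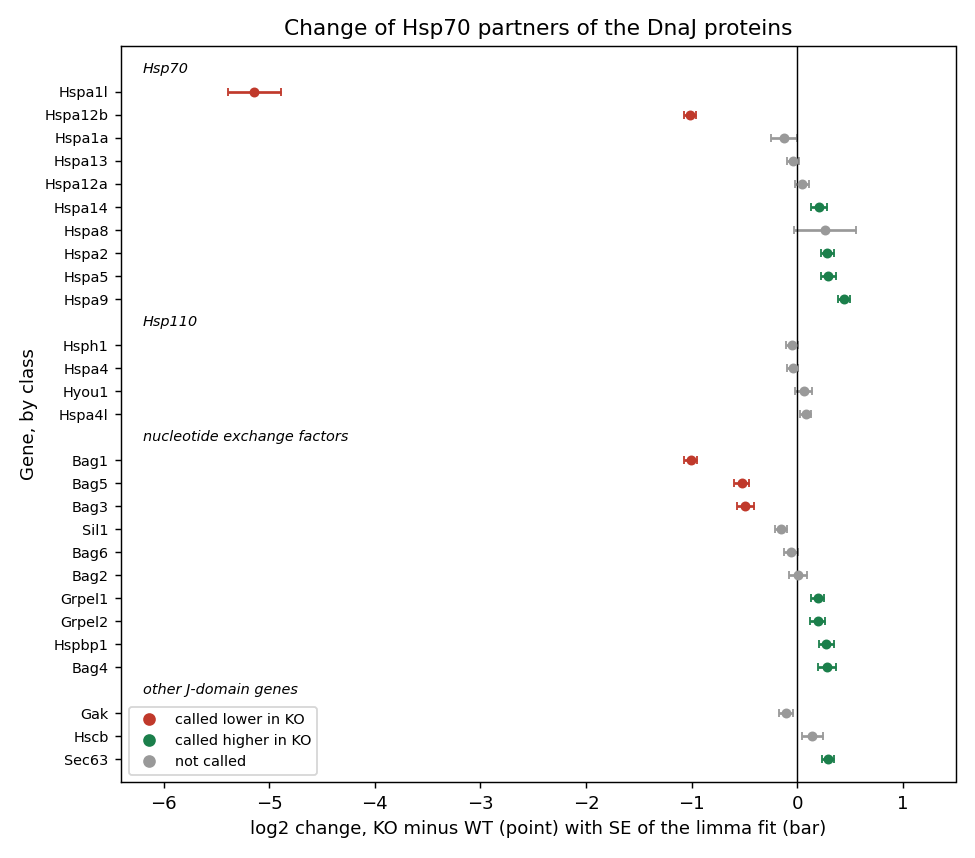
Log2 change, KO minus WT, of 24 genes of Hsp70, Hsp110 and nucleotide exchange factors and of 3 other J-domain genes, with the SE of the limma fit as a bar. Hspa1l lies at −5.14, Bag1 and Hspa12b at −1.01, and all others lie closer to 0.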

How the data were processed

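The deposited values are log2 levels (2.74 to 14.6), which the authors computed with RMA (XPS package), with 1 value per core transcript and background taken off by means of antigenomic probes. The package version and genome build are not given in the sources used here. Of 35557 rows, 25689 held values and were used, and 9868 were empty on all arrays. Symbols came from GEO's platform annotation, updated through RefSeq (GRCm38.p6): 20777 features had 1 symbol, 232 several and 4680 none, which gave 19661 genes. The 44 DnaJ genes had 58 features, 15 of them for Dnajc13, and features naming several genes were left out. Probes of a feature are averaged, so isoforms cannot be told apart and near-identical paralogues can share signal. The number of arrays limits the precision: the SE of a member's change was 0.05 to 0.26 (median 0.07). Among the adult mice with an RNA integrity number in the paper, all KO values were slightly above all WT values. The labels do not link these mice to the arrays, and an influence of RNA quality was not tested.

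KO was set against WT by two-sided tests of limma 3.58.1 (R 4.3.3, lmFit followed by eBayes) with no covariate, and p-values were Benjamini-Hochberg adjusted over the 25689 features. The fit was also run on simulated data with independent noise, no batches and the same spread in both genotypes. That run therefore does not bear on batch differences or unequal spreads. The p-values rest on the spread between mice within the genotypes, 5 mice each, pooled over both and moderated with the spread of all features. Batch has no term in the main fit, so differences between batches are part of this spread. Members, gene lists and roles were chosen with earlier results of these data known. All values per array are given for members called with a log2 change of at least 1 in size, the 4 largest called rises and members with a known place in the testis, and partners are named if called with a change of at least 1 in size or as the 2 largest changes of their list. Exceptions chosen after their values were seen are Hspa2, and Dnajc19 and Dnajc6, whose arrays are also given. Signal left is 2 to the power of the KO level, as a percentage of the mean of the WT arrays on the same linear scale. Alternatives were other scalings, batch as a block or alone, array weights, trended variances, a filter on the lowest 25% of features, a minimum change of 1, the mean of a gene's features and leaving out each array. Leaving out KO replicates 2 and 3 together was chosen after seeing the data.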

Additional observations from a re-analysis of the deposited data

Results flagged for a closer look

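In 5 of 106 groups of 5 arrays examined for members and partners, the highest or lowest array stood apart from its neighbours, and chance alone does this in about 1 of 20 groups. Dnajb2 was at 8.79 in KO replicate 2, with the nearest KO array at 9.15. Dnajc18 was at 10.50 in KO replicate 2, with the nearest at 10.31. Dnajc21 was at 10.27 in KO replicate 1, with the nearest at 10.08. Dnajc5g was at 11.42 in KO replicate 4, with the nearest at 11.75. Dnajc25 was at 7.24 in WT replicate 5, with the nearest WT array at 7.73. Their causes were not tested.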

How the results depend on the processing

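Of the 26 called DnaJ genes, 8 were called under all 22 alternatives run for each: Dnajb3, Dnajb4, Dnajb7, Dnajb8, Dnajc5b, Dnajc6, Dnajc9 and Dnajc24. Dnajc18 lost its call in 12 alternatives and Dnajb11 in 7, among them without KO replicates 1 and 4 and without WT replicates 1 and 2, each alone. Dnajc22 lost it without WT replicate 1 (limma adjusted p = 0.0537) and without WT replicate 5 (0.0555). Dnaja2, Dnaja3, Dnajb13, Dnajc5 and Dnajc10 lost their call in 3 alternatives each. For Dnajc1, Dnajc8, Dnajc13, Dnajc14, Dnajc15 and Dnajc16 it was lost in 2 each, the fits of batch 2 and batch 4 alone. For Dnaja4, Dnajb2, Dnajc19 and Dnajc21 it was lost in 1 each. Of the members not called, Dnajb1 and Dnajc25 gained a call in 10 alternatives each, Dnajc4 in 4, Dnajc28 in 2 and Dnajc27 and Dnajb5 in 1 each.

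In the main fit 13.2% of all genes were called lower and 31.1% higher. The count of members called lower was 13 to 15 under other scalings and 12 to 14 when each array was left out. It was 13 without KO replicates 2 and 3 (background 13%) and 4 at a minimum change of 1 (background 4.36%). The count called higher was 13 to 14 under other scalings and 11 to 15 when each array was left out. It was 8 with a fixed block for batch (background 26.3%) and 14 without KO replicates 2 and 3 (background 30.6%). At a minimum change of 1 it was 0 (background 1.37%). Batches 2 and 4 hold 4 arrays each. The median change was 0.0038 in batch 2, 0.14 in batch 4 and 0.03 to 0.10 when each array was left out. Of the partners, 5 were called higher with batch as a fixed block (background 26.3%), 5 without WT replicate 2 and 5 to 8 over all single arrays left out. Fewer partners were called higher in batch 2 or batch 4 alone, and each of these fits has a single array of a genotype. At a minimum change of 1, 3 partners were lower (background 4.36%) and 0 higher (background 1.37%).

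Only members that were not called changed sign. In batch 2 the changes were −0.093 for Dnajb12, −0.014 for Dnajb14, −0.44 for Dnajc2, −0.013 for Dnajc27 and 0.11 for Dnajc5g. In batch 4 they were −0.038 for Dnajb5 and −0.062 for Dnajc28. A fixed block for batch gave −0.069 for Dnajc2 and 0.049 for Dnajc5g, array weights gave −0.0013 for Dnajb12 and −0.016 for Dnajc2, and quantile normalisation once more gave 0.016 for Dnajc5g. When each array was left out, Dnajb12 ran between −0.015 and 0.044, Dnajc2 between −0.018 and 0.14 and Dnajc5g between −0.10 and 0.045. The causes were not tested. No paired analysis was possible because the labels give no replicate numbers that the genotypes share.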
